A study of Homo sapiens with 3 samples.

Results

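The 4 human HOX clusters were examined for binding of FOXA2 in Caco2 cells, an established line from a colorectal adenocarcinoma that resembles enterocytes when it differentiates. They were taken as 4 intervals of the hg19 assembly, each reaching about 50 kb beyond its genes on both sides, and a peak was counted in an interval when its midpoint lay there. HOXA was chromosome 7 from 27082001 to 27300000, with 10 of the genes considered. HOXB was chromosome 17 from 46556001 to 46857000, also with 10 genes. HOXC was chromosome 12 from 54282001 to 54500000, and HOXD was chromosome 2 from 176907001 to 177106000, with 9 genes each. Of the 63949 peaks of replicate 1, 60 lay in these intervals, and of the 26907 peaks of replicate 2, 20 did. The 38 genes were HOXA2 to HOXA7, HOXA9 to HOXA11 and HOXA13; HOXB1 to HOXB9 and HOXB13; HOXC4 to HOXC6 and HOXC8 to HOXC13; and HOXD1, HOXD3, HOXD4 and HOXD8 to HOXD13. All 38 were found in the RefSeq gene table, which gives their order along the chromosome on another assembly. Gene positions on hg19 were not used here, so the intervals were not checked against an annotation and no peak was assigned to a gene.

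The study mapped FOXA2 by chromatin immunoprecipitation and sequencing (ChIP-seq) to learn how it regulates genes of intestinal epithelial cells. Chromatin came from unmodified Caco2 cells in low-glucose medium with serum, and no treatment or genotype was compared. The labels give 2 immunoprecipitations with an antibody to FOXA2 and 1 input library without antibody, which was used here only through the authors' peak calls. Whether the replicates came from separate cultures is not stated, so their differences may be technical.

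HOX genes encode homeodomain transcription factors that give cells their position along the head-to-tail axis of the embryo. They stand in order in each cluster: low-numbered genes act towards the head and high-numbered genes towards the tail, and the gut keeps a regional pattern of them in adult life. HOX13 genes such as HOXB13 mark the hindgut and its derivatives, while HOXB1 and HOXA2 pattern the hindbrain. Silent parts of the clusters are kept under Polycomb repression. FOXA2 is a forkhead factor of the endoderm that can bind compacted chromatin and recognises a short core, TGTTTAC or TGTTTGC and close variants.

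To show the letters of a forkhead core beside HOX genes, RefSeq promoter windows (GRCh38.p14, 250 bases before to 50 after each start) were searched on both strands for the core TGTTTAC, its common variant TGTTTGC, the related TATTTAC, and finally TATTTGC. Windows were found for 20 of the 38 genes, giving 26 distinct windows. These were spread unevenly: HOXA3 gave the most, HOXB only that of HOXB1, and HOXC only the window shared by HOXC4 and HOXC5. Shares over the 26 windows therefore stand mainly for HOXA and HOXD. A core was present in 3 of the 26 windows (11.5%), and in 12.1% of all 34943 windows. The window shared by HOXC4 and HOXC5 held 2 cores, and those of HOXA2 and HOXD1 held 1 each. The sequences below are given on the strand of the gene and in lower case, with each core in capitals.
HOXC4 and HOXC5, chr12:54016663-54016790, plus strand: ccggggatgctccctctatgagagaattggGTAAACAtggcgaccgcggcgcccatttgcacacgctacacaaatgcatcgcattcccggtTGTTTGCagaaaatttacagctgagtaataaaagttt
HOXD1, chr2:176188618-176188667, plus strand: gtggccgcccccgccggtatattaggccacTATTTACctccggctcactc
HOXA2, chr7:27102814-27102880, minus strand: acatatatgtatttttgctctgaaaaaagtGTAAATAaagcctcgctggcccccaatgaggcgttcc
In HOXC4 and HOXC5 the cores began 195 and 134 bases before the start, in HOXA2 167 bases and in HOXD1 20 bases before it. The half-site TTTATNG, known for CDX and posterior HOX factors, was in 6 of the 26 windows (23.1%), and in 9.75% of all windows, on either strand. It was found in windows of HOXA3 (2 of them), HOXA9, HOXA10 and HOXD8 and in the window of HOXC4 and HOXC5. These matches describe letters only. The sequences belong to another assembly than the peaks, so no peak was placed on them.

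FOXA2 peaks were present in all 4 HOX intervals in both replicates, and 19 sites of the 60 in replicate 1 were also found in replicate 2. That is 6 sites in HOXA, 8 in HOXB, 3 in HOXC and 2 in HOXD. They make up 31.7% of the replicate 1 peaks (95% Wilson interval 21.3% to 44.2%). Over the whole first list the share with a counterpart, at least 1 bp in common, was 38.1%. Seen from replicate 2, 18 of its 20 HOX peaks had a counterpart (90%, 69.9% to 97.2%), against 90.5% over its whole list. Counted over all peaks, the shares in the intervals are thus near those of the lists. Among the stronger replicate 1 peaks the share was lower than over the list, as given below. Replicate 1 was the deeper library, with 26183147 tags against 15756702, and its efficiency of immunoprecipitation was 8.72% against 5.16%, per the file headers.

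**Figure D1:**
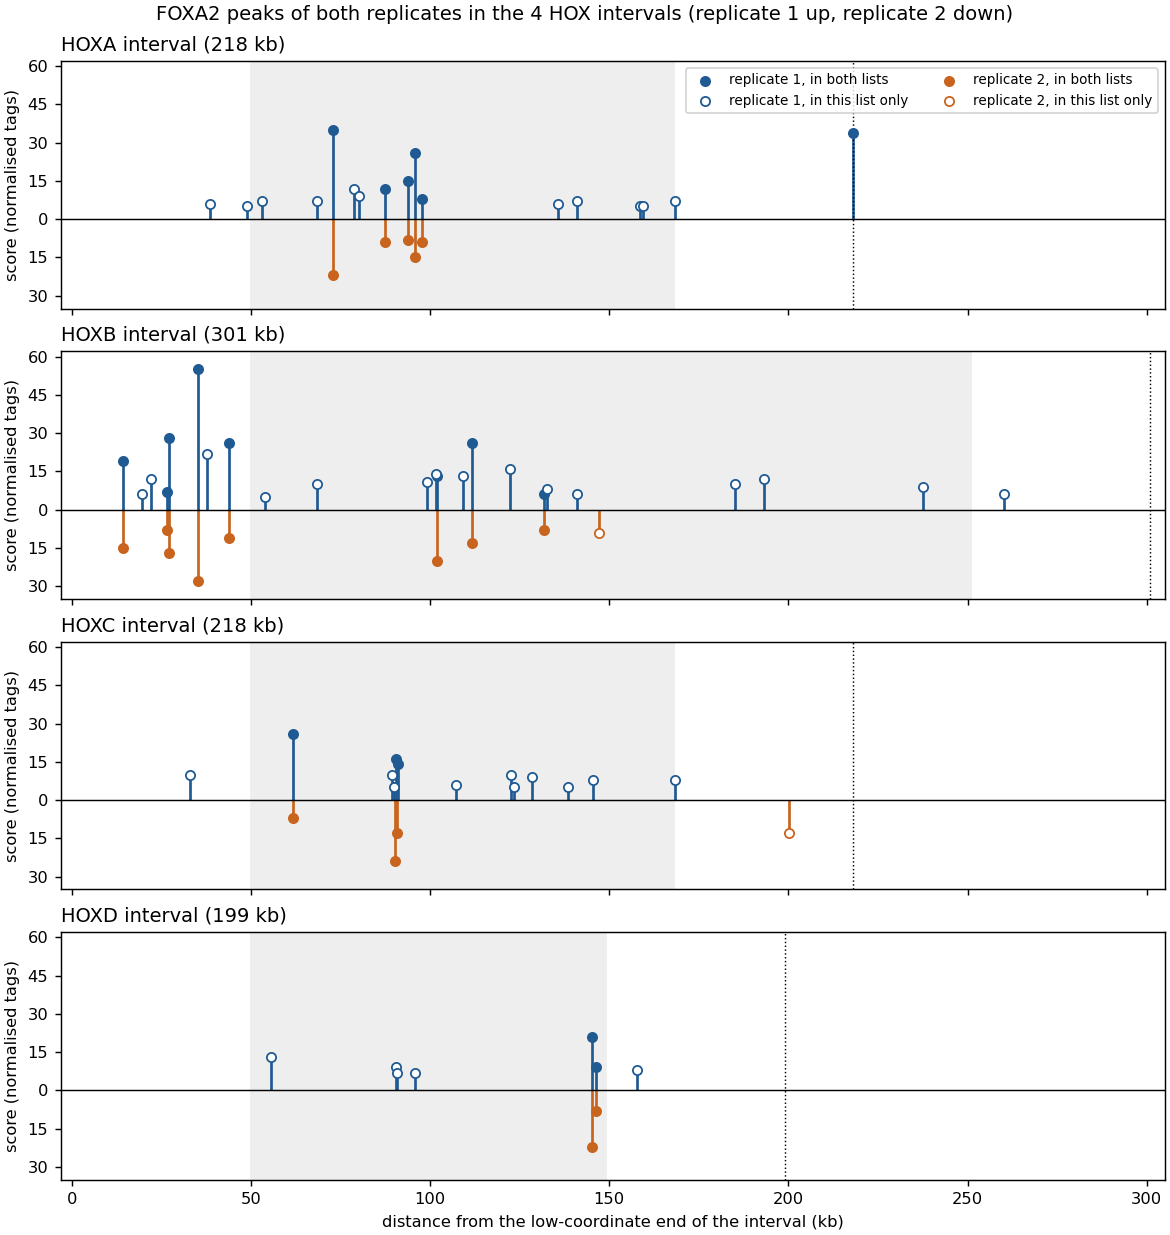
FOXA2 peaks in the 4 HOX intervals. The x axis is the distance in kb from the low-coordinate end of the interval, and the y axis is the authors' score in normalised tags, upwards for replicate 1 and downwards for replicate 2. Filled symbols are peaks found in both lists, open symbols peaks of 1 list, the grey area is the interval less 50 kb at each end, and the dotted line is its high-coordinate end. The 5 HOXA sites inside the grey area lie close together, and 5 of the 8 HOXB sites lie outside it.

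HOX peaks scored near the middle of the lists. The score is the authors' tag count of a peak scaled to 10000000 tags per library and rounded. It had a median of 9 (range 5 to 55) over the 60 replicate 1 peaks, against 8 over that whole list. In replicate 2 the median was 13 (7 to 28), against 11 over the list. A score of at least 10 was reached by 29 of the 60 replicate 1 peaks, against 40.3% of that list, and by 12 of the 20 replicate 2 peaks, against 65.9%. Only 3 of the 60 replicate 1 peaks, and none of the 20 replicate 2 peaks, were among the 10% with the highest scores of their list. Those 3 were the strongest HOXB site and the HOXA sites at 27154850 and 27299915.

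The HOXB interval held the strongest HOX site, on chromosome 17 at 46591095 to 46591217. It scored 55 in replicate 1 and 28 in replicate 2 (41.5 ± 19.1, mean ± SD, n = 2), which is 6.88 and 2.55 times the median of each list. This site lay 35.2 kb from the low-coordinate end, in the 50 kb beyond the HOXB1 end of the gene array. HOXB1 is a gene of hindbrain segments, and beyond it the next protein-coding gene in RefSeq order is SKAP1. It was not alone there. The site at 46570121 to 46570243 scored 19 and 15 in replicates 1 and 2 (17 ± 2.83), and the site at 46583140 to 46583262 scored 28 and 17 (22.5 ± 7.78). Next to the latter, the site at 46582440 to 46582562 scored 7 and 8 (7.5 ± 0.707). The site at 46599688 to 46599810 scored 26 and 11 (18.5 ± 10.6). These 5 sites belonged to a run of 8 replicate 1 peaks over 29.7 kb in which no neighbours lay more than 10 kb apart.

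Inside the HOXB gene array the replicates shared 3 sites. The site at 46657892 to 46658014 was stronger in replicate 2, with 20 against 13 in replicate 1 (16.5 ± 4.95). At 46667578 to 46667700 the order was the other way, with 26 in replicate 1 and 13 in replicate 2 (19.5 ± 9.19). The weakest HOX site of all lay at 46687637 to 46687759 and scored 6 and 8 (7 ± 1.41). From 46703091 to the end of the array at 46807000, a stretch of 104 kb that RefSeq order places towards HOXB13, a gene of the prostate and distal colon, replicate 2 had no peak. Replicate 1 had 3 peaks there, scoring 9 to 12.

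In HOXA, 5 of the 6 shared sites belonged to 1 run of 8 replicate 1 peaks over 29.4 kb. The strongest, on chromosome 7 at 27154850 to 27154972, scored 35 in replicate 1 and 22 in replicate 2 (28.5 ± 9.19, n = 2). The site at 27177759 to 27177881 scored 26 and 15 (20.5 ± 7.78), with neighbours at 27175708 to 27175830 (15 and 8, mean 11.5 ± 4.95) and 27179784 to 27179906 (8 and 9, mean 8.5 ± 0.707). Between them and the strongest site lay that at 27169308 to 27169430, with 12 and 9 (10.5 ± 2.12). Beyond the last of these sites, from 27179841 to the end of the array at 27250000, lay 70.2 kb towards HOXA13, a gene of the limb tip, hindgut and genital tract. Replicate 2 had no peak there and replicate 1 had 4, scoring 5 to 7. This HOXA stretch and the HOXB stretch towards HOXB13 were picked as the longest of their arrays without a replicate 2 peak. That they held no shared site follows from this choice. The arrays held only 5 and 4 replicate 2 peaks.

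The remaining HOXA site, at 27299915 to 27300037, stood on the limit of the interval. It scored 34 in replicate 1 and 13 in replicate 2 (23.5 ± 14.8). Its midpoint was 24.5 bp inside the interval in replicate 1 and 1.5 bp beyond it in replicate 2, where it therefore counted among the flanks.

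HOXC held 3 shared sites, 2 of them side by side. On chromosome 12, the site at 54372291 to 54372413 scored 16 in replicate 1 and 24 in replicate 2 (20 ± 5.66, n = 2). Its neighbour at 54372873 to 54372995 scored 14 and 13 (13.5 ± 0.707). Together with another pair of replicate 1 peaks they formed a group of 4 over 1.56 kb, the tightest among groups of 3 or more. The site at 54343610 to 54343732, towards the end with HOXC13, a gene of hair and nail, scored 26 in replicate 1 and only 7 in replicate 2 (16.5 ± 13.4), a ratio of 3.71 that was the largest of the 19 sites. The longest part of the HOXC array without a replicate 2 peak was 77.1 kb, from 54372902 to the array's end at 54450000. It lay towards the low-numbered genes and away from HOXC13, unlike the HOXA and HOXB stretches towards HOXA13 and HOXB13. Replicate 1 peaks without a counterpart scored 5 to 10 there.

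HOXD had the fewest sites, and both shared ones stood at the end with HOXD1, far from HOXD13, which shapes the digits. On chromosome 2, the site at 177052087 to 177052209 scored 21 and 22 in replicates 1 and 2 (21.5 ± 0.707, n = 2). The site at 177053342 to 177053464 scored 9 and 8 (8.5 ± 0.707). Both differed by 1 score unit between the replicates. The rest of the HOXD array, 95.1 kb from 176957001 to 177052122, had no replicate 2 peak. Replicate 1 had 4 peaks in that stretch, scoring 7 to 13.

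**Figure D2:**
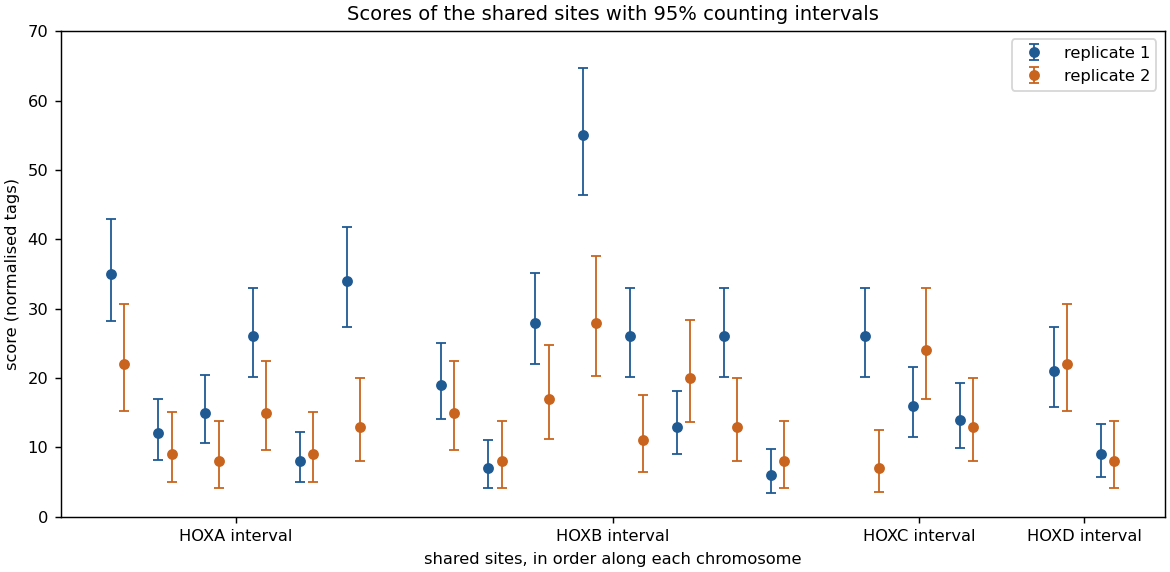
Scores of the 19 shared sites in order along each chromosome. The y axis is the authors' score in normalised tags, and the bars are 95% exact Poisson intervals from the approximate tags behind each score. Replicate 1 was higher at 13 of the 19 sites, and the bars of 5 sites do not overlap.

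At 13 of the 19 sites (68.4%) the score was higher in replicate 1, against 63.7% of all 24345 shared sites. Dividing the first score by the second gave a median of 1.33 (range 0.65 to 3.71), and of 1.20 over the whole series. The tags behind 1 score unit were 2.62 in the first library and 1.58 in the second. The 95% Poisson intervals of the 2 scores overlapped at 14 sites and stood apart at 5. These 5 were the strongest HOXB site, the HOXB sites at 46599688 and 46667578, the HOXA site on the interval's limit and the HOXC site at 54343610, all higher in replicate 1. The intervals cover counting error only, and peak widths differed, with 123 bp in replicate 1 and 151 bp in replicate 2. The mean score of the 19 sites had a median of 17, against 14.5 over all shared sites.

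Of the replicate 1 peaks, 41 had no counterpart in replicate 2, with a median score of 8 (range 5 to 22). The highest was in HOXB at 46593778 to 46593900, between the strongest HOXB site and its neighbour, with a score of 22. Of all replicate 1 peaks with that score, 88.7% had a counterpart. HOXB also had the single-replicate peaks at 46678114 to 46678236 with 16, a score at which 75.2% of the list had a counterpart, and at 46657505 to 46657627 with 14. In HOXA the highest were those at 27160631 to 27160753 with 12 and at 27162007 to 27162129 with 9, followed by 4 peaks tied at 7, which began at 27135078, 27150515, 27222964 and 27250383. In HOXC 3 peaks scored 10, beginning at 54315068, 54371435 and 54404492. In HOXD they were the peaks at 176962416 to 176962538 with 13, 176997309 to 176997431 with 9 and 177064787 to 177064909 with 8. Replicate 2 had 2 peaks of its own, in HOXB at 46703016 to 46703166 with 9 and in HOXC at 54481966 to 54482116 with 13.

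The position of the sites along the gene arrays was then described from the low-numbered to the high-numbered genes. Each interval less 50 kb at either end was taken as the approximate array and divided into 3 parts of equal length. The outer parts are named after the end of the gene order they adjoin. Which genes lie in each part was not determined, so a part may hold genes of other numbers than its name says. Of the 13 shared sites within the arrays, 6 lay in the low-numbered part, 6 in the middle and 1 in the high-numbered part, which was the HOXC site at 54343610. The pair of HOXC sites counted in the middle lay close to its border with the high-numbered part. Of the 44 replicate 1 peaks in the arrays, 17, 18 and 9 lay in the 3 parts, and of the 14 replicate 2 peaks 6, 7 and 1. This division was chosen after the positions had been seen and was not tested.

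**Figure D3:**
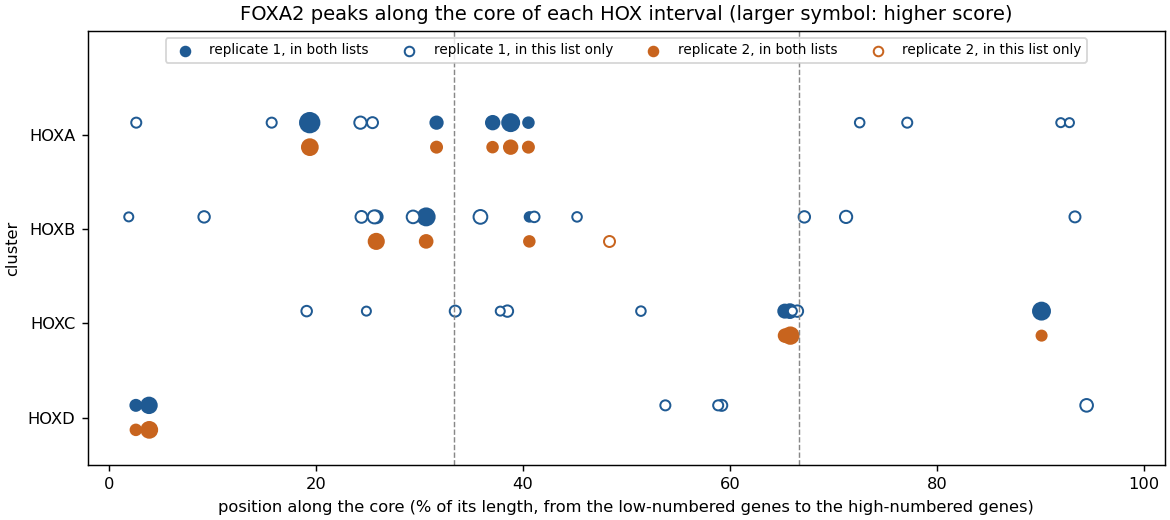
Peaks along the approximate gene array of each cluster. The x axis is the position in % of the array's length, turned so that the low-numbered genes are on the left in every cluster, dashed lines mark the 3 equal parts, and larger symbols have higher scores. The last part holds 9 of the 44 replicate 1 peaks and 1 of the 14 replicate 2 peaks.

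Binding inside the clusters was compared with 2 flanks of equal length, one on each side of every interval. In replicate 1 the 4 intervals together held 60 peaks in 936 kb, or 6.41 per 100 kb (95% exact Poisson interval 4.89 to 8.25). Their flanks held 80 peaks in 1872 kb, or 4.27 per 100 kb (3.39 to 5.32). The ratio of densities was 1.5 (two-sided exact binomial test, adjusted p = 0.0391 over the 2 replicates). In replicate 2 the density was 2.14 per 100 kb inside (1.31 to 3.30) and 2.14 in the flanks (1.53 to 2.91), from 20 and 40 peaks (exact binomial adjusted p = 1). The mean ratio was 1.25 ± 0.354 (SD, n = 2). Whether the replicates differ in this ratio was not tested.

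The excess of replicate 1 was smaller among its stronger peaks and did not pass the test there. Of its HOX peaks, 31 scored below 10, against 37 in the flanks. Among peaks scoring at least 10 there were 29 inside and 43 in the flanks, a ratio of 1.35 (exact binomial adjusted p = 0.426). Of those 29 peaks 15 had a counterpart in replicate 2, against 73.6% of all replicate 1 peaks of that strength and 29 of the 43 in the flanks (two-sided Fisher's exact test of inside against flanks, p = 0.221). Sites found in both replicates had densities of 2.03 per 100 kb inside (1.22 to 3.17) and 1.87 in the flanks (1.30 to 2.60). Shorter flanks, reaching 0.5 of the interval's length on each side, also ended the call in replicate 1 (ratio 1.5, exact binomial adjusted p = 0.114). So did leaving out HOXA, HOXC or HOXD in turn, with ratios of 1.56, 1.38 and 1.43 (exact binomial adjusted p = 0.0634, 0.185 and 0.0963). The p-values treat peaks as independent, which clustered peaks are not, and concern peaks and not libraries.

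No single cluster passed the test against its own flanks. In replicate 1 the ratio was 1.36 for HOXA (17 peaks inside, 25 in the flanks), 1.24 for HOXB (23 and 37), 2.17 for HOXC (13 and 12) and 2.33 for HOXD (7 and 6). The exact binomial p adjusted over the 8 tests was lowest for HOXC, at 0.451. In replicate 2 it was 0.833 for HOXA (5 and 12), 0.947 for HOXB (9 and 19), 1.14 for HOXC (4 and 7) and 2.00 for HOXD (2 and 2), with adjusted exact p of at least 0.968. The ratios of replicate 2 rest on 2 to 19 peaks each side.

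**Figure D4:**
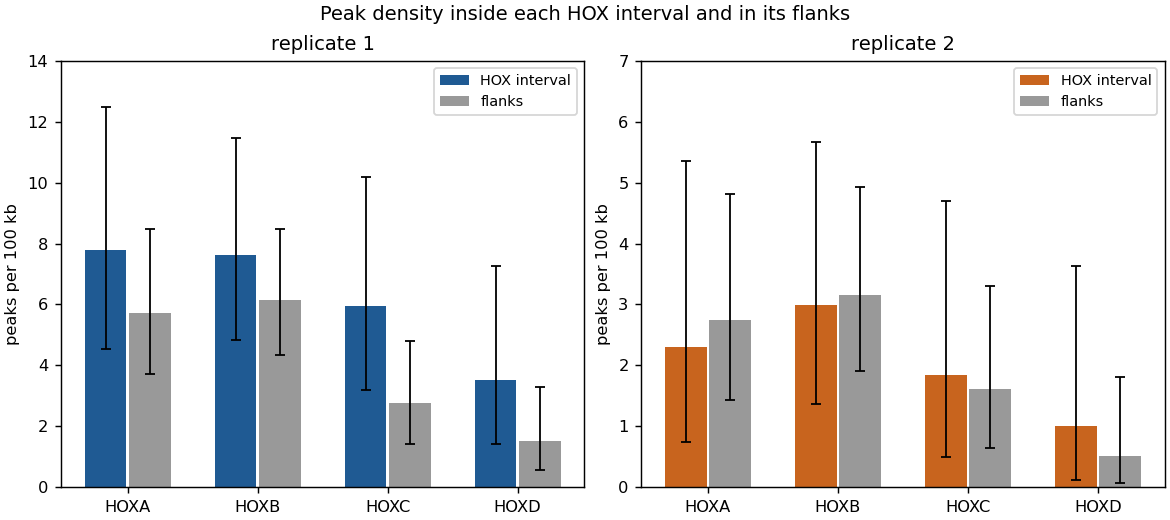
Peaks per 100 kb inside each HOX interval (coloured) and in its flanks (grey), by replicate, with 95% exact Poisson intervals as bars. The y axes start at 0 and differ between the replicates. In replicate 1 every interval lies above its flanks, and the bars of interval and flanks overlap in all 8 pairs.

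The 4 clusters were also compared with each other. In replicate 1 HOXA and HOXB were nearly equal at 7.80 and 7.64 peaks per 100 kb, followed by HOXC at 5.96 and HOXD at 3.52. In replicate 2 HOXB had 2.99, HOXA 2.29, HOXC 1.83 and HOXD 1.01. Over the full intervals HOXD was thus lowest in both lists, at 2.26 ± 1.78 per 100 kb (mean ± SD, n = 2), against 5.05 ± 3.89 for HOXA, 5.32 ± 3.29 for HOXB and 3.90 ± 2.92 for HOXC. With 50 kb taken off each end the order of HOXB and HOXD turned in replicate 2, at 1.99 and 2.02 per 100 kb. None of the 6 pairs passed the exact binomial test in either replicate. The largest contrast of replicate 1, HOXA over HOXD by 2.22-fold, had an exact adjusted p of 0.601 over the 12 tests, and that of replicate 2, HOXB over HOXD by 2.98-fold, had 0.819. No order of the neighbours in density can therefore be drawn beyond counting error.

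In all clusters except HOXD, the flank site with the highest mean score of the 2 replicates had a higher mean than any shared site inside the interval. The 2 flanks together are longer than the interval, and the highest sites come from sets of unlike size. Flanks of HOXA, HOXB and HOXC held 11, 16 and 7 shared sites, against 6, 8 and 3 inside. Each of the top flank sites lay on the high-coordinate side. Replicate 1 flank peaks, whether shared or not, scored up to 120 beside HOXB and 45 beside HOXC. Beside HOXB, the site at 46886718 to 46886840 scored 115 and 111 (113 ± 2.83, n = 2), 29.8 kb past the interval on the HOXB13 side. Beside HOXA, the site at 27383526 to 27383648 scored 75 and 36 (55.5 ± 27.6), 83.6 kb past it. Beside HOXC, the site at 54547526 to 54547648 scored 40 and 29 (34.5 ± 7.78). Beside HOXD, the only shared flank site, at 177189666 to 177189788, scored 14 and 7 (10.5 ± 4.95) and was weaker than the stronger HOXD site. In the flanks 35 of 80 replicate 1 peaks were shared (43.8%, 95% Wilson interval 33.4% to 54.7%). The share inside, 31.7%, was lower, but the difference did not pass the test (two-sided Fisher's exact test p = 0.164).

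Within the intervals, replicate 1 peaks were denser over the approximate gene arrays than over the 50 kb margins. The arrays held 44 peaks in 536 kb (8.21 per 100 kb, 95% exact Poisson interval 5.96 to 11.0) and the margins 16 in 400 kb (4 per 100 kb, 2.29 to 6.50). In replicate 2 there were 14 and 6 peaks (2.61, 1.43 to 4.38, and 1.5, 0.550 to 3.26). HOXB was the exception: its low-coordinate margin held 8 replicate 1 peaks, 16 per 100 kb (6.91 to 31.5), against 6.97 (3.81 to 11.7) over its array. In replicate 2 that margin held 5 peaks and the HOXB array 4. The HOXA, HOXC and HOXD margins together held 7 replicate 1 peaks and 1 replicate 2 peak. With 50 kb taken off each end, and flanks of the shortened length set beside the full intervals, the ratio of the 4 clusters to their flanks was 1.83 in replicate 1 (exact binomial adjusted p = 0.0079) and 1.08 in replicate 2 (adjusted exact p = 0.867).

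Against the rest of the genome, HOXA and HOXB were in the upper range of peak number and HOXD was not. Peaks were counted in adjoining windows of the same length as each interval. At least as many replicate 1 peaks as in HOXA were found in 3.03% of 13707 windows of 218 kb, whose median was 3 peaks. For HOXB it was 2.38% of 9924 windows of 301 kb, with a median of 4. For HOXC it was 8.46%, and for HOXD 25.5% of windows of 199 kb. In replicate 2 the shares were 14.2% for HOXA, 6.48% for HOXB, 20.3% for HOXC and 38.9% for HOXD. The windows' mean was 2.14 replicate 1 peaks per 100 kb. The flanks of HOXA and HOXB were also above it, with 5.73 and 6.15, those of HOXC had 2.75, and those of HOXD had 1.51. These shares are a description without a test, and windows over assembly gaps were part of them.

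**Figure D5:**
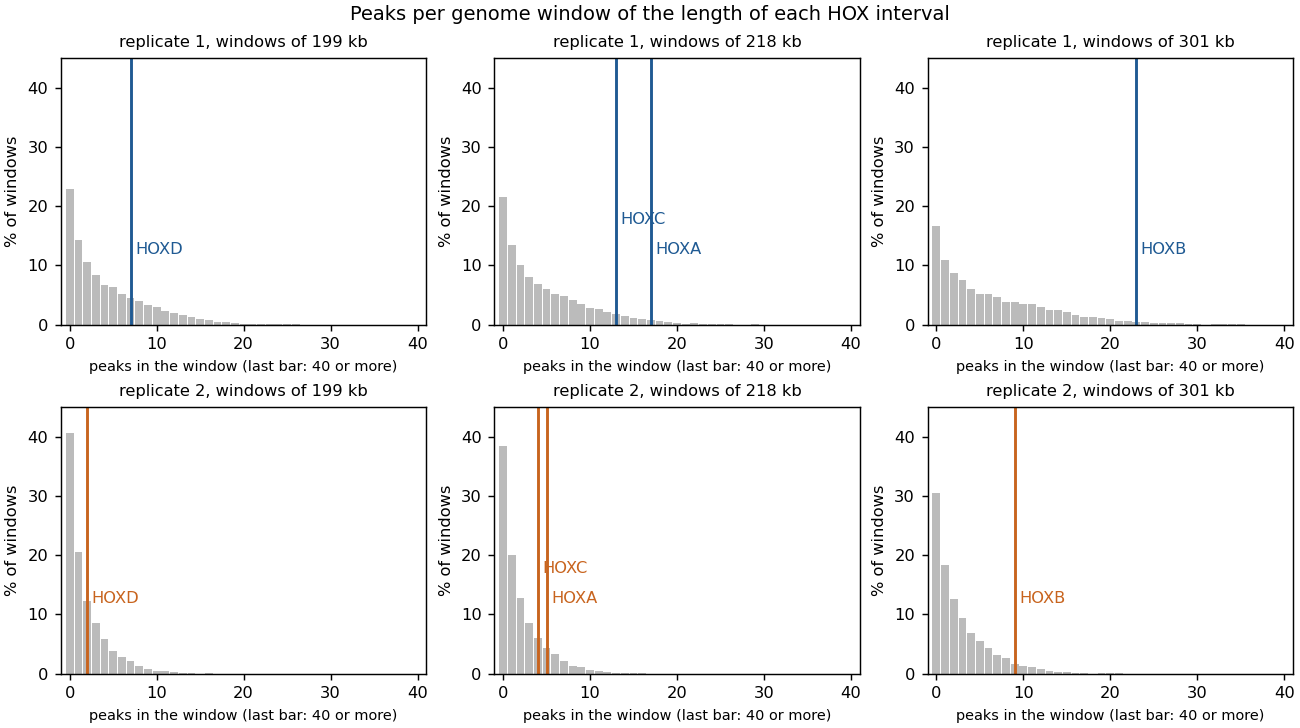
Distribution of peak number over genome windows of the length of each HOX interval. The x axis is the number of peaks in a window, the y axis the % of windows, and vertical lines mark the HOX intervals. The HOXA and HOXB lines of replicate 1 stand at 17 and 23 peaks, in the upper tail, and the HOXD line at 7 stands within the body of the distribution.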

How the data were processed

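Peak lists of 2 FOXA2 ChIP-seq replicates were used. Reads were aligned to hg19, and Bowtie 1.0.0 and HOMER 1.2 are the tools named, per the submitters' processing notes. Peaks were called with HOMER findPeaks in factor style in each replicate on its own, per the file headers, at a false discovery rate of 0.001, requiring 4 times the input and 4 times the local 10000 bp. The score of each peak is the tag count scaled by the authors to 10000000 tags and rounded, and start and end are other deposited values. Intervals with 95% confidence cover counting error only.

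From these lists, peaks were counted by midpoint, shared sites needed 1 bp in common, and shared sites are given at replicate 1 coordinates, 1-based. Exact binomial and Fisher's tests were two-sided, with Benjamini-Hochberg adjustment. Alternatives were a score of at least 10, lists of about equal length, assignment by any overlap, intervals less 50 kb at each end, shorter flanks and overlap of 50% of the replicate 1 peak. The scripts ran under Python 3.11.15 with pandas 2.3.3, scipy 1.17.1 and numpy 2.4.6, and were tested on simulated data.

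All shared sites were named, with the 3 highest peaks of 1 list per interval and the top flank site. The members and lists were chosen with earlier results of these data known. Motifs in peaks and genes outside the clusters (HOX cofactors, CDX and Polycomb genes) were not analysed here.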

Additional observations from a re-analysis of the deposited data

How the results depend on the processing

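The excess of replicate 1 in the 4 intervals depended on the peaks and flanks counted. Its ratio to the flanks was 1.35 with scores of at least 10, and the same 1.35 with lists of about equal length (the same score limit), and 1.5 with shorter flanks, which hold fewer peaks (exact binomial adjusted p = 0.426, 0.426 and 0.114). It was 1.56 without HOXA, 1.38 without HOXC and 1.43 without HOXD (alternatives chosen after seeing the data), and none of these passed the test. It passed without HOXB (1.72), by any overlap (1.5) and with 50 kb off each end (1.83). Directions that had not passed a test turned in 12 settings, not counting those that left out 1 replicate. Against its own flanks, HOXA in replicate 2 turned to 1.09 by any overlap, where the site on the interval's limit counts inside, and to 1.11 with 50 kb off each end. HOXB in replicate 2 turned to 1.12 with shorter flanks, and HOXC to 0.857 with scores of at least 10 and 0.80 with shorter flanks. Between clusters, HOXA to HOXB turned to 0.552 in replicate 1 with scores of at least 10 or equal lists and to 2.13 in replicate 2 with 50 kb off. HOXB to HOXC turned with 50 kb off to 0.747 and 0.783 in replicates 1 and 2, and HOXB to HOXD to 0.985 in replicate 2. HOXA to HOXC turned to 0.667 in replicate 2 with scores of at least 10. Apart from assignment by any overlap, these settings counted fewer peaks. Taking 50 kb off each end removed the low-coordinate HOXB margin, with its 8 replicate 1 and 5 replicate 2 peaks. Why the directions turned was not tested. The shared sites numbered 12 with a score of at least 10 in both replicates and 19 with 50% of the peak covered. Without replicate 1 or replicate 2, the mean ratio was 1 or 1.5. The HOXD ratio of replicate 2 with scores of at least 10 has no value, because its flanks then held no peak. The motif alternatives were not run. No paired analysis was possible because the design has 1 group of immunoprecipitations. Replicate 2 holds 20 HOX peaks, which limits the precision of its ratios; its lower tag total and its lower efficiency of immunoprecipitation cannot be told apart.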
